A study of Homo sapiens with 12 samples.

Results

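The 9 genes described here make, salvage or break down deoxyribonucleotides (dNTPs), the building blocks of DNA. They were taken from the count files by gene symbol and are RRM1, RRM2, RRM2B, TYMS, TK1, DUT, DCTPP1, DCK and SAMHD1, 9 of the 23710 genes listed. All 9 were found and passed the filter on low counts in both experiments. RCC4 is an established cell line of clear cell renal carcinoma, and 12 libraries were made from its RNA, 72 hours after each culture had received 40 pmol of siRNA. Group siMESH1-CDS received an siRNA against the coding region of the MESH1 transcript, and group siMESH1-7002 received one against its 3′UTR. Each was run with its own control, here called siNT-CDS and siNT-7002, which received the same AllStars non-targeting siRNA. Every group held 3 libraries that the labels call biological replicates. The 6 libraries of the siMESH1-CDS experiment ran on lanes 4 to 7 and the other 6 on lane 2, so the experiments differ in more than the siRNA. The models are limited to 1 cell line, 1 time point and 1 siRNA sequence per group, with no rescue by a resistant MESH1.

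Ribonucleotide reductase turns ribonucleoside diphosphates into deoxyribonucleoside diphosphates and sets the rate at which new dNTPs appear. RRM1 is its large catalytic subunit, and it works with 1 of 2 small subunits that carry the iron centre: RRM2, which is made for S phase and destroyed in mitosis and G1, or RRM2B, which DNA damage induces and which serves repair and mitochondrial DNA outside S phase. TYMS makes thymidylate from deoxyuridylate with a folate carbon, and DUT supplies that deoxyuridylate by cleaving dUTP. The kinases TK1 and DCK recover thymidine and deoxycytidine from outside the cell. DCTPP1 hydrolyses dCTP and modified dCTP, and SAMHD1 cleaves dNTPs back to nucleosides. In dividing cells, carcinoma lines included, RRM2, TYMS and TK1 are known for a peak in S phase under E2F factors.

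The siRNAs and the sites that share their seed are shown because a guide can also lower transcripts that pair only with its bases 2 to 8. The lines give the target strand of each siRNA, then the only 3′UTR site of RRM2 and the first of 2 in SAMHD1 that match the siMESH1-CDS seed. Capitals mark the 7 bases that pair with the seed.
siMESH1-CDS target: gggaatcactgACATTGTg
siMESH1-7002 target: ctgaaggtctcctGCTAACTa
RRM2 3′UTR: acaaataaACATTGTttgtactc
SAMHD1 3′UTR: agaaattgACATTGTcattgaca
The targets lie within single exons of HDDC3, the gene of MESH1, on the minus strand of GRCh38, at chr15:90932064-90932082 in the coding region and at chr15:90931109-90931129 in the 3′UTR. The RRM2 site is at chr2:10129774-10129796 on the plus strand and the SAMHD1 site at chr20:36892411-36892433 on the minus strand, both in the 3′UTR. The other 7 genes had no match to the siMESH1-CDS seed, and none of the 9 had one to the siMESH1-7002 seed. Over 18251 genes with a 3′UTR, 13.2% had a match to the first seed and 4.89% to the second. A match describes the letters of the transcript and is no evidence of pairing.

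The targeted gene was measured first. HDDC3 had 438, 292 and 361 reads in siNT-CDS and 5, 0 and 11 in siMESH1-CDS, and 442, 326 and 358 in siNT-7002 against 36, 35 and 52 in siMESH1-7002. Both labels therefore held in every library. Libraries held 34063155 to 49134129 reads in genes in the siMESH1-CDS experiment and 24787804 to 31651125 in the other. Before scaling, 1 CPM (a count per 1000000 reads in genes) thus rests on about 25 to 49 reads. The CPM values given here are also scaled by TMM, which shifts that number in each library. Of the genes listed as kidney or renal carcinoma markers, PAX8 (at least 31.2 CPM) and VIM (at least 3403 CPM) were read in every library. All 10 markers of blood, endothelium, liver, glia and muscle stayed under 1 CPM. Of the first list, KRT18, NDUFA4L2, CA9 and PAX2 were at 0.286, 0.0780, 1.53 and 2.91 CPM in their lowest libraries. Their medians over all libraries were 68.3, 491, 103 and 63.6 CPM.

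The siMESH1-CDS libraries stood apart from the rest in the GC content of what they held. Among the tenth of genes with the lowest transcript GC content the median log2 difference from siNT was 1.07, 1.41 and 0.75 in replicates 1, 2 and 3, and among the tenth with the highest it was -3.86, -4.96 and -2.68. In siMESH1-7002 those medians lay between -0.10 and 0.14. Changes with siMESH1-CDS are therefore also given after a GC correction, in which each gene and library received an offset from a smooth of log2 CPM on GC content. With siMESH1-CDS the correction moved the median change of all genes from -0.05 to 0.17, so a corrected value near 0.17 is the middle of all genes there. With siMESH1-7002 the correction moved that median from 0.01 to 0.08. It moved the calls with siMESH1-CDS from 4945 higher and 4981 lower to 5388 and 3590, and those with siMESH1-7002 from 3613 and 3622 to 5325 and 3199. What the GC trend contributes to the changes of single genes was not tested.

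With siMESH1-CDS, 5 of the 9 genes were lower than in siNT and 1 was higher, by edgeR's quasi-likelihood test at an adjusted p under 0.05. Of all 13395 genes tested there, 37.2% were called lower, 36.9% higher and 74.1% in either direction. After GC correction 7 of the 9 were called lower and 0 higher, against 26.8% and 40.2% of all genes and 67.0% in either direction. With siMESH1-7002, 7 of the 9 were lower and 1 was higher, where 26.7% and 26.6% of 13568 genes were called and 53.3% in either direction. GC correction left these counts of the 9 genes at 7 and 1, against 23.6% lower, 39.2% higher and 62.8% in either direction. RRM1, RRM2, TYMS, TK1 and DCTPP1 were lower with each siRNA, as were 15.14% of the 12824 genes tested with each. RRM2B was higher with each, as were 15.55%. The median log2 fold change of the 9 genes was -1.17 with siMESH1-CDS and -0.68 with siMESH1-7002, beside -0.05 and 0.01 over all genes tested. In bulk RNA, fewer cells that express a gene and less RNA per cell cannot be told apart, and this holds for every change below. In 6 of the 9 genes no siMESH1-CDS library overlapped a control, 5 below and 1 above, and in all 9 no siMESH1-7002 library did, 8 below and 1 above. Over all genes 82.7% did not overlap with siMESH1-CDS (42.5% below, 40.2% above) and 59.5% with siMESH1-7002 (29.9% below, 29.6% above).

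**Figure D1:**
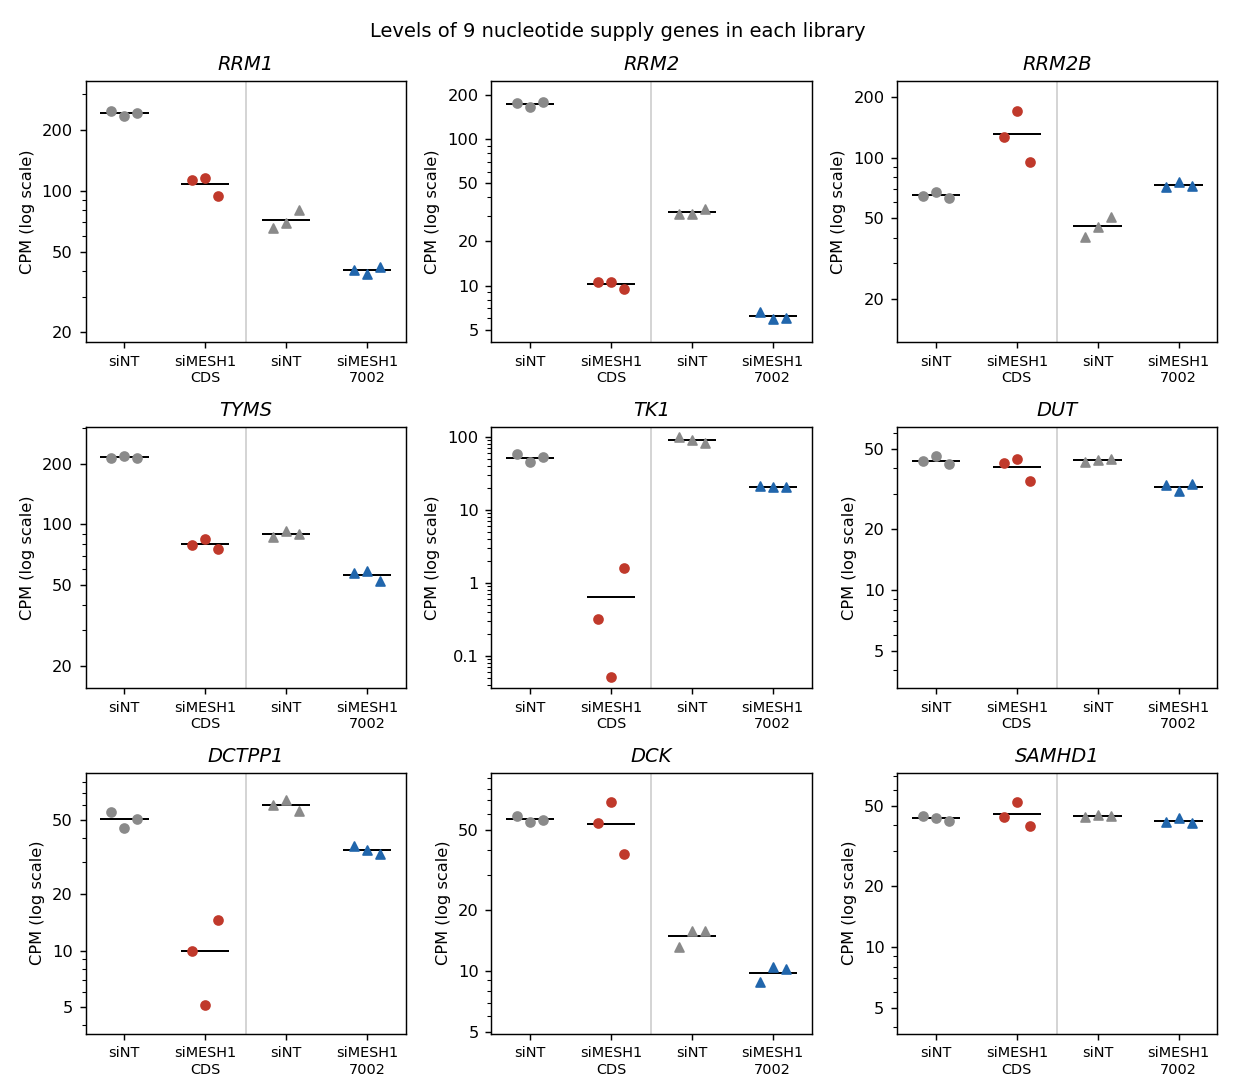
Level of each of the 9 genes in every library, in TMM-scaled CPM on a log axis, with 3 points per group (circles, siMESH1-CDS experiment; triangles, siMESH1-7002 experiment) and a bar at their mean. RRM2 dropped from 172.9 to 10.2 CPM and from 31.7 to 6.17 CPM, RRM2B went from 65.0 to 130.8 and from 45.6 to 73.5, and SAMHD1 stayed between 39.8 and 52.2 in all 12 libraries.

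RRM2, the S-phase small subunit of the reductase, fell furthest of the 3 reductase genes with each siRNA. Its level was 176.9, 164.3 and 177.6 CPM in siNT-CDS and 10.7, 10.6 and 9.43 CPM in siMESH1-CDS. In the other experiment it was 31.0, 30.6 and 33.4 CPM in siNT-7002 and 6.59, 5.88 and 6.04 CPM in siMESH1-7002. The 3 knockdown libraries lay far below every control and close to each other, and the control levels of the 2 experiments, which were scaled separately, did not come near each other. The mean was 16.9 times lower with siMESH1-CDS (log2 fold change -4.08, SE 0.105, edgeR adjusted p = 0.000116) and 5.14 times lower with siMESH1-7002 (-2.36, SE 0.0791, adjusted p = 4.69e-13). Only 0.0773% of the genes in the same GC class, 1 gene in 1293, had a lower value than RRM2 with siMESH1-CDS, and GC correction gave -4.69. RRM2 holds the siMESH1-CDS seed match printed above and has no match to the siMESH1-7002 seed.

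RRM1, the catalytic subunit, moved the same way by less. It had 249.7, 236 and 242 CPM in siNT-CDS against 113, 116 and 94.4 CPM in siMESH1-CDS, and 65.4, 69.6 and 80.0 CPM in siNT-7002 against 40.4, 38.9 and 41.8 CPM in siMESH1-7002. No knockdown library reached a control of its experiment. The levels left were 44.4% of control with siMESH1-CDS (log2 fold change -1.17, SE 0.105, edgeR adjusted p = 0.000413) and 56.3% with siMESH1-7002 (-0.83, SE 0.0688, adjusted p = 3.33e-08). After GC correction the first change was -1.75 and the second -0.81.

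RRM2B, the damage-inducible small subunit, was the only one of the 9 genes called higher. Its level was 64.8, 67.3 and 62.9 CPM in siNT-CDS and 126, 171 and 94.99 CPM in siMESH1-CDS. In the siMESH1-7002 experiment it was 40.6, 45.2 and 51.1 CPM in the controls and 71.6, 76.1 and 72.8 CPM after knockdown. All knockdown libraries lay above their controls, tightly with siMESH1-7002 and widely spread with siMESH1-CDS. The change was 2.01-fold with siMESH1-CDS (log2 fold change 1.01, SE 0.215, edgeR adjusted p = 0.00677) and 1.61-fold with siMESH1-7002 (0.69, SE 0.0696, adjusted p = 3.54e-07). RRM2B has the lowest GC content of the 9 transcripts, 36.4%, and with siMESH1-CDS the median change of the genes in its GC class was 1.101, so 45.1% of that class lay below it. After GC correction the change with siMESH1-CDS was 0.13 (edgeR adjusted p = 0.155), which is -0.04 relative to the median of all genes and no longer a call. With siMESH1-7002 the corrected change was 0.64 (edgeR adjusted p = 1.11e-11), and 94.1% of the GC class lay below RRM2B before correction.

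The balance of the small subunits can be read within a library as RRM2 reads per RRM2B read, which no scaling between libraries changes. The ratio was 2.73, 2.44 and 2.82 in siNT-CDS and 0.0844, 0.0619 and 0.0993 in siMESH1-CDS. In the other experiment it was 0.763, 0.677 and 0.654 in siNT-7002 and 0.0920, 0.0773 and 0.0830 in siMESH1-7002. RRM2 reads thus outnumbered RRM2B reads only in siNT-CDS, and the 2 knockdown groups, whose controls differed, overlapped. Reads were not divided by transcript length, so a ratio of 1 does not mean equal numbers of transcripts. The mean log2 ratio fell by 5.05 (SE 0.210) with siMESH1-CDS and by 3.05 (SE 0.0996) with siMESH1-7002, each with an exact permutation p = 0.1, two-sided, the smallest that 3 against 3 allows. With GC-corrected changes of both genes the falls came to -4.81 and -2.99 on the log2 scale.

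**Figure D2:**
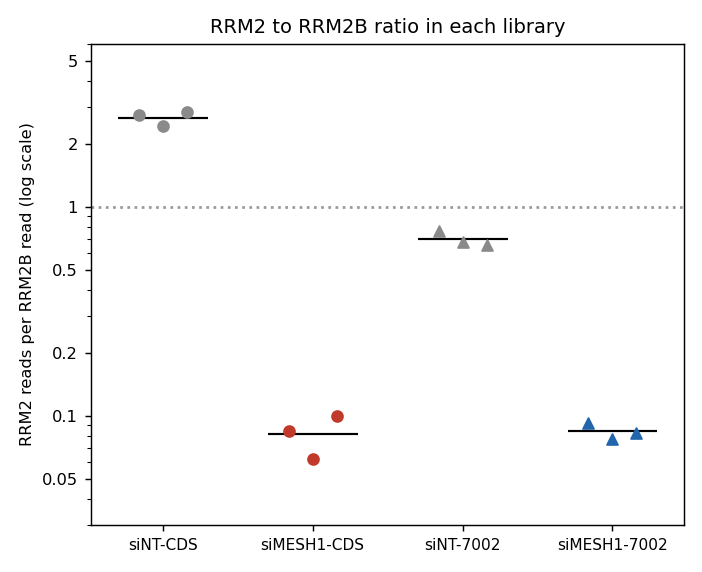
RRM2 reads per RRM2B read in each library on a log axis, with 3 points per group, a bar at the mean and a dotted line at equal reads. The knockdown libraries lie between 0.0619 and 0.0993, and the controls average 2.67 in siNT-CDS and 0.698 in siNT-7002.

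The thymidylate route was lower at its synthase. TYMS had 213, 217 and 214 CPM in siNT-CDS and 79.4, 84.6 and 75.5 CPM in siMESH1-CDS, and 86.7, 92.8 and 89.3 CPM in siNT-7002 against 57.2, 58.7 and 52.2 CPM in siMESH1-7002. Replicates lay close together in all 4 groups, and no groups of the same experiment overlapped. TYMS fell to 37.2% of control with siMESH1-CDS (log2 fold change -1.43, SE 0.0811, edgeR adjusted p = 0.000214, -1.11 after GC correction) and to 62.6% with siMESH1-7002 (-0.68, SE 0.0562, adjusted p = 3.23e-08). Exons of TYMS overlap those of ENOSF1 on the opposite strand, and the strand setting of the counting is not given in the sources used here, so reads of the pair may not be told apart. The same holds for DCTPP1 with ZNF771 and for HDDC3 with UNC45A. Exons of DCK overlap those of MOB1B on the same strand.

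DUT, which feeds TYMS and keeps uracil out of DNA, passed the test with siMESH1-7002 only, and its changes with the 2 siRNAs were not called different from each other. Its level was 43.5, 45.9 and 41.9 CPM in siNT-CDS and 42.4, 44.6 and 34.5 CPM in siMESH1-CDS. In siNT-7002 it was 43.0, 44.2 and 44.7 CPM, and in siMESH1-7002 33.0, 30.8 and 33.5 CPM. The groups overlapped in the first experiment and were separate in the second. DUT was called lower with siMESH1-7002, to 73.8% of control (log2 fold change -0.44, SE 0.0585, edgeR adjusted p = 8.45e-06). With siMESH1-CDS its log2 fold change was -0.11, with a 95% interval from -0.44 to 0.22 (edgeR adjusted p = 0.472). GC correction turned this into a call, at -0.56 (edgeR adjusted p = 0.00177). Reads may be shared with copies, since the annotation names 8 pseudogenes after DUT, 3 after RRM2 and 2 after TYMS, and none of them has a row in the files.

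Of the salvage kinases, TK1 nearly disappeared from the siMESH1-CDS libraries. Its counts were 3063, 2068 and 2462 reads in siNT-CDS and 10, 2 and 55 reads in siMESH1-CDS, which is 57.5, 45.8 and 52.9 CPM against 0.316, 0.0520 and 1.58 CPM. In the siMESH1-7002 experiment it went from 98.2, 89.5 and 83.1 CPM to 21.2, 20.9 and 20.7 CPM. The 3 siMESH1-7002 libraries were almost equal, whereas the siMESH1-CDS libraries spanned a wide range of very low counts. The log2 fold change was -6.32 (SE 1.03, edgeR adjusted p = 0.00249) with siMESH1-CDS and -2.11 (SE 0.0662, adjusted p = 2.75e-13) with siMESH1-7002. The value with siMESH1-CDS was -8.22 without siMESH1-CDS replicate 3 and -5.73 without siMESH1-CDS replicate 2. TK1 has the highest GC content of the 9, 61.6%, in a class whose median change with siMESH1-CDS was -3.69, and GC correction gave -3.43 (edgeR adjusted p = 0.000567). With siMESH1-7002 the corrected value was -1.97.

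DCK, which phosphorylates deoxycytidine and many nucleoside drugs, had 58.7, 54.9 and 56.0 CPM in siNT-CDS and 54.0, 68.7 and 38.1 CPM in siMESH1-CDS. The control levels of the other experiment were lower, at 13.2, 15.8 and 15.9 CPM, and fell to 8.88, 10.47 and 10.2 CPM in siMESH1-7002. The siMESH1-CDS libraries lay on both sides of their controls, while those of siMESH1-7002 were all below. DCK was lower with siMESH1-7002 (log2 fold change -0.59, SE 0.0943, edgeR adjusted p = 5.20e-05). With siMESH1-CDS the value was -0.08, with a 95% interval from -0.61 to 0.45 (edgeR adjusted p = 0.758). Among genes of the same low GC content, where the median was 1.02, 11.7% lay below DCK, and after GC correction it was called lower at -0.92 (edgeR adjusted p = 0.000463).

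DCTPP1, the dCTP pyrophosphatase, was lower with each siRNA. It had 55.5, 45.5 and 50.5 CPM in siNT-CDS and 9.99, 5.12 and 14.6 CPM in siMESH1-CDS, and 60.4, 64.1 and 56.2 CPM in siNT-7002 against 36.2, 34.4 and 32.9 CPM in siMESH1-7002. No knockdown library reached a control, and the siMESH1-CDS libraries differed most among themselves relative to their mean (9.91 ± 4.75 CPM, SD, n = 3). The changes were -2.35 (SE 0.384, edgeR adjusted p = 0.00250) and -0.80 (SE 0.0624, edgeR adjusted p = 1.38e-08) on the log2 scale. The median of its GC class with siMESH1-CDS was -1.64, and 30.1% of the class lay below DCTPP1. After GC correction the change was -0.78 (edgeR adjusted p = 0.000523).

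SAMHD1, the dNTP triphosphohydrolase, passed the test in neither experiment. It had 44.4, 43.6 and 42.2 CPM in siNT-CDS, 44.2, 52.2 and 39.8 CPM in siMESH1-CDS, 43.9, 45.2 and 44.5 CPM in siNT-7002 and 41.7, 43.6 and 41.0 CPM in siMESH1-7002. The siMESH1-CDS libraries overlapped their controls, and those of siMESH1-7002 lay just below theirs. The log2 fold changes were 0.06, with a 95% interval from -0.26 to 0.38 (edgeR adjusted p = 0.675), and -0.08, with an interval from -0.20 to 0.04 (edgeR adjusted p = 0.233). The direction with siMESH1-CDS was not fixed, since it was -0.17 after GC correction and -0.21 with scaling by library size alone. SAMHD1 holds 2 of the siMESH1-CDS seed matches counted above.

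**Figure D3:**
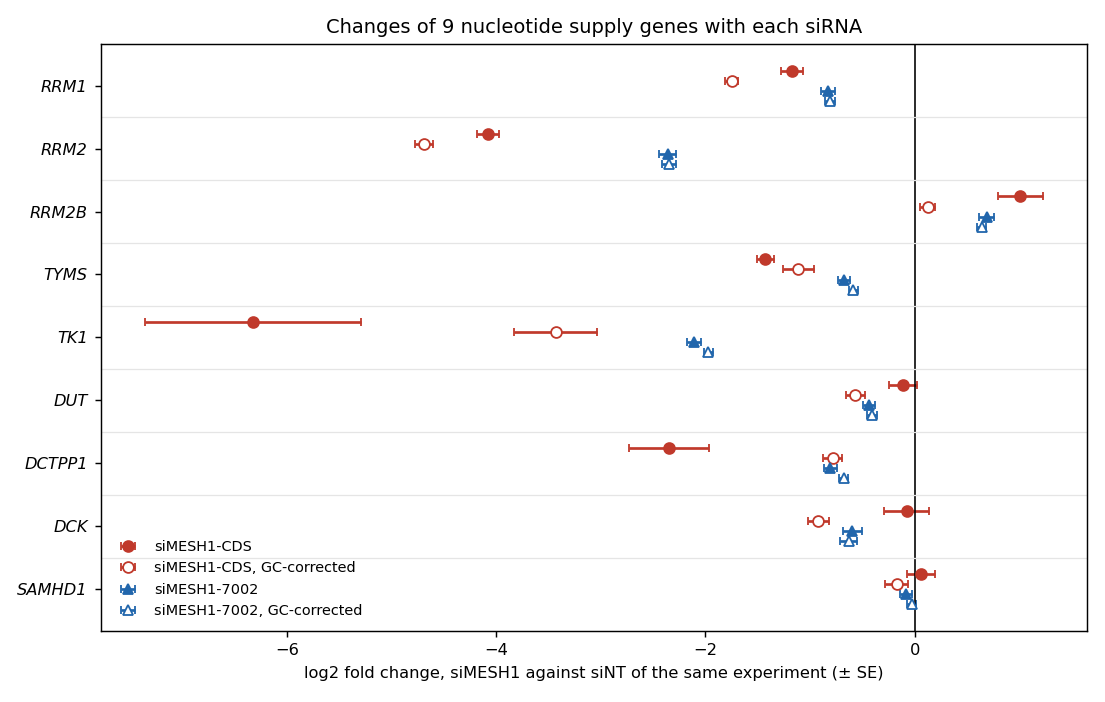
Log2 fold change of each gene against siNT of the same experiment, with bars of ± SE, for siMESH1-CDS (red circles) and siMESH1-7002 (blue triangles), filled as measured and open after GC correction. For siMESH1-CDS the correction moves RRM2B from 1.01 to 0.13, TK1 from -6.32 to -3.43 and DCTPP1 from -2.35 to -0.78, while RRM2 stays at -4.08 and -4.69. The siMESH1-7002 values shift by little.

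**Figure D4:**
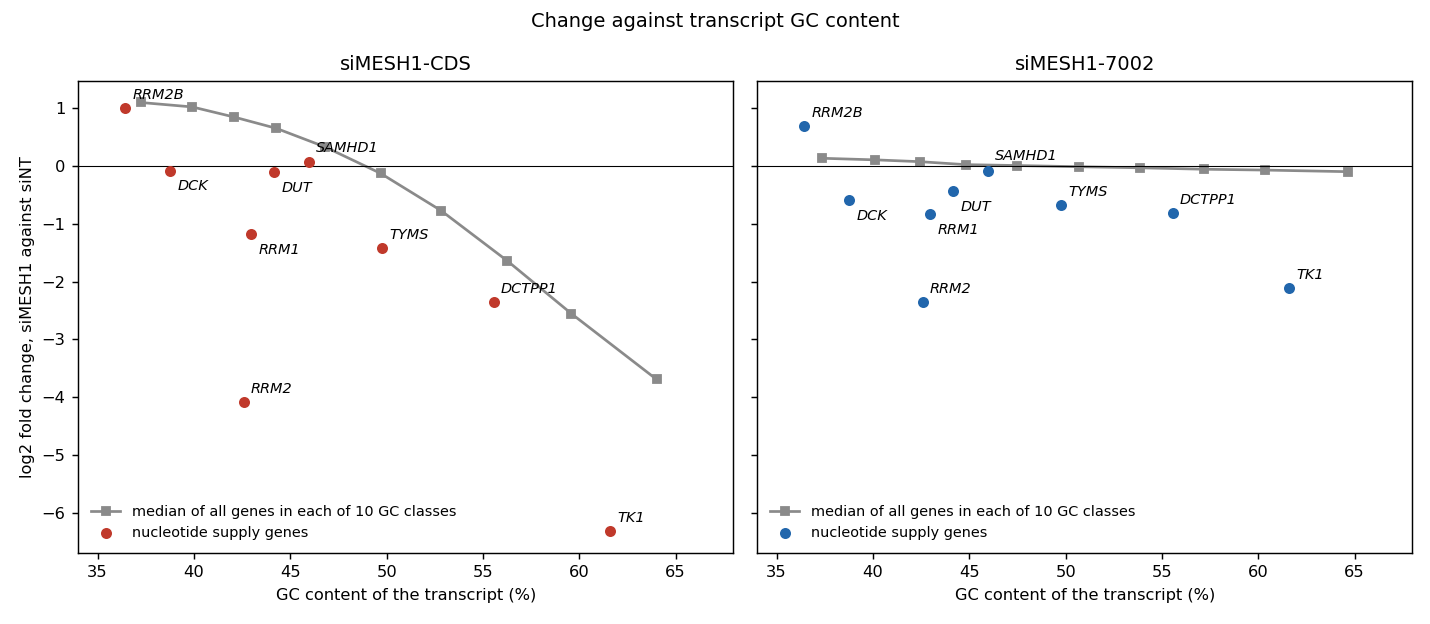
Log2 fold change against the GC content of the transcript in percent, for siMESH1-CDS on the left and siMESH1-7002 on the right. Squares joined by a line are the medians of all genes in 10 GC classes, which run from 1.101 to -3.69 on the left and from 0.14 to -0.10 on the right, and labelled points are the 9 genes.

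In the siMESH1-CDS experiment, lanes 4 and 6 each held 1 control and 1 knockdown library, and the changes could be read within them without a test. RRM2 differed by -4.23 and -4.06 on the log2 scale within lanes 4 and 6, RRM1 by -1.40 and -1.10, TYMS by -1.49 and -1.43, and DCTPP1 by -1.92 and -2.34. RRM2B differed by 0.55 and 1.00 and TK1 by -5.19 and -7.39. These 6 genes kept the direction of the pooled comparison in both lanes. The genes that were not called were less even, with DUT at -0.34 and 0.02, DCK at -0.62 and -0.05 and SAMHD1 at -0.16 and 0.06. All libraries of the other experiment shared lane 2.

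The changes of the 2 siRNAs were then compared with each other in a fit of all 12 libraries, as the change with siMESH1-7002 minus that with siMESH1-CDS. In this fit 5 of the 9 genes differed, all 5 with a positive difference, where 39.7% of 14154 genes were called with a positive difference, 30.0% with a negative one and 69.7% in all. The median difference of all genes was 0.24. Each gene had 1 dispersion for both experiments, whose biological coefficients of variation in separate fits were 0.299 with siMESH1-CDS and 0.0490 with siMESH1-7002. An SE given here may therefore understate the spread of siMESH1-CDS. For TK1 the SE of the siMESH1-CDS change alone was 1.03. RRM2 differed by 1.87 (SE 0.118, edgeR adjusted p = 1.16e-06), TK1 by 4.36 (SE 0.7996, adjusted p = 0.000790), DCTPP1 by 1.69 (SE 0.397, adjusted p = 0.00339), TYMS by 0.90 (SE 0.0982, adjusted p = 3.03e-05) and RRM1 by 0.49 (SE 0.138, adjusted p = 0.00879). All 5 are genes that fell with each siRNA, and they fell further with siMESH1-CDS. Relative to the median of all genes the difference of RRM1 was 0.25 and that of RRM2 1.63. RRM2B differed by -0.17, with a 95% interval from -0.71 to 0.37, DUT by -0.18 (-0.49 to 0.13), DCK by -0.37 (-0.94 to 0.20) and SAMHD1 by 0.01 (-0.29 to 0.31), and none of these 4 was called.

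After GC correction the calls over all genes moved from 5626 positive and 4240 negative to 3923 and 4676, and 7 of the 9 genes were called, all positive, where 27.7% of all genes were called positive, 33.0% negative and 60.8% in all. DCTPP1 was then at 0.04 (edgeR adjusted p = 0.710) and no longer called. RRM2B turned to 0.60 (edgeR adjusted p = 8.47e-05), DUT to 0.23 (adjusted p = 0.0497) and DCK to 0.36 (adjusted p = 0.0338). RRM2, at 2.41, and TK1, at 1.35, kept a called difference. Leaving out siMESH1-CDS replicate 3 made 8 of the 9 genes pass, with RRM2B at -0.42, DUT at -0.35 and DCK at -0.63, so whether these 3 pass uncorrected depends on that library. The siRNAs cannot be told apart from the experiments in which they were used.

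Levels in the control cells were compared between genes per kilobase of exon. In siNT-CDS the order was TYMS at 86.9 ± 0.967 CPM per kb (SD, n = 3), RRM1 at 58.1 ± 1.68, RRM2 at 32.5 ± 1.41, DCTPP1 at 31.9 ± 3.16, TK1 at 28.0 ± 3.18, DCK at 17.5 ± 0.610, DUT at 11.9 ± 0.548, RRM2B at 11.7 ± 0.392 and SAMHD1 at 3.86 ± 0.0980. Neighbours overlapped between libraries from RRM2 to TK1 and for DUT and RRM2B, and the other steps held in every pair of libraries. In siNT-7002 the order ran from TK1 at 48.5 ± 4.08 CPM per kb through DCTPP1 at 38.1 ± 2.51, TYMS at 36.3 ± 1.24, RRM1 at 17.2 ± 1.80, DUT at 11.97 ± 0.248, RRM2B at 8.23 ± 0.946, RRM2 at 5.95 ± 0.285 and DCK at 4.63 ± 0.470 to SAMHD1 at 3.96 ± 0.0565, where only DCTPP1 and TYMS overlapped. By this measure the same cell line with the same control siRNA had RRM2 above RRM2B in one experiment and below it in the other. The length was the union of all exons, 5323 bases for RRM2, 5548 for RRM2B and 11261 for SAMHD1. The single transcripts used for GC content have 3431, 4931 and 5298 bases. The order between genes, that of RRM2 and RRM2B in siNT-7002 included, depends on this choice. For DUT and SAMHD1 the control libraries of the experiments overlapped. Control level and experiment cannot be told apart here.

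Promoters were searched for short motifs, since RRM2, TYMS and TK1 are known for a peak in S phase under E2F factors. Whether any motif bears on the changes was not tested. RefSeq promoters on GRCh38.p14, from 250 bases before to 50 after the start, were available for 8 of the 9 genes, all but RRM2B. They were searched on both strands for the E2F motifs TTTGGCGC and TTTCCCGC, for the CCAAT box and for TTTGAA, the core of the CHR element. TYMS had TTTCCCGC on the reverse strand at -39 (chr18:657606-657629) and DCK had TTTGGCGC on the reverse strand at 22 (chr4:70993662-70993685). RRM2 had 3 CCAAT boxes on its own strand, at -123, -93 and -66 (chr2:10122608-10122628, chr2:10122638-10122658 and chr2:10122665-10122685). Capitals mark the motif.
TYMS promoter: ggacggccGCGGGAAAaggcgcgc
DCK promoter: gcctccgcGCGCCAAAgtcaaacc
RRM2 promoter, first box: aggcgcagCCAATgggaaggg
RRM2 promoter, second box: tggcacagCCAATgggaaggg
RRM2 promoter, last box: caccaaagCCAATgggaaggg
Of 27305 promoters of this length, 2.31% hold either E2F motif, 35.7% a CCAAT box, 3.42% at least 3 of them and 15.4% TTTGAA. RRM1 had 1 CCAAT box and 1 TTTGAA, SAMHD1, which was not called, had 2 CCAAT boxes, and TK1, DUT and DCTPP1 had none of these letters in the window. A match says nothing about binding.

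The other genes of the pathway were followed in 8 lists of 84 genes, of which 79 were tested with siMESH1-CDS and 81 with siMESH1-7002. With siMESH1-CDS 46 of these genes were called lower and 13 higher, and with siMESH1-7002 39 lower and 19 higher, beside 37.2% and 36.9% of all genes in the first comparison and 26.7% and 26.6% in the second. With GC correction these counts were 38 lower and 18 higher with siMESH1-CDS, beside 26.8% and 40.2% of all genes. With siMESH1-7002 they were 33 and 25, beside 23.6% and 39.2% of all genes. These shares of all genes, uncorrected and corrected, also stand beside the counts of each list below. The lists were written with earlier results of these libraries known, and their counts are descriptions.

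Among 12 tested genes of other dNTP synthesis and salvage steps, 8 fell and 2 rose with siMESH1-CDS, with a median log2 fold change of -1.42, and 5 fell and 3 rose with siMESH1-7002, with a median of -0.07. After GC correction 5 were lower and 4 higher with siMESH1-CDS (median -0.75), and 4 and 3 with siMESH1-7002 (median 0.07). DTYMK, the thymidylate kinase that follows TYMS and TK1, fell by 3.55 and by 0.84 on the log2 scale, but its GC-corrected change with siMESH1-CDS was -0.60 and was not called (edgeR adjusted p = 0.203). TYMP, the thymidine phosphorylase, was at -5.44 and -0.43, with a corrected siMESH1-CDS value of -1.06 that was not called and a value of -8.11 without siMESH1-CDS replicate 3. CMPK1, the UMP-CMP kinase, rose by 1.51 (0.65 after GC correction) and 0.37 on the log2 scale.

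Of the genes for dNTP breakdown and sanitation, 7 of 8 fell and 1 rose with siMESH1-CDS (median -2.66), and 5 of 9 fell and 1 rose with siMESH1-7002 (median -0.20). After GC correction the counts were 3 lower and 2 higher with siMESH1-CDS, and 3 and 1 with siMESH1-7002. NUDT1, which clears oxidised purine dNTPs, fell from 11.3 to 0.409 CPM and from 17.1 to 7.93 CPM, with changes of -4.79 and -1.11. Its value with siMESH1-CDS was -2.21 after GC correction and -6.15 without siMESH1-CDS replicate 3. PNP, the purine nucleoside phosphorylase, had log2 fold changes of -2.75 (-2.47 after GC correction) and -0.66, both calls. NT5C, a deoxynucleotidase, was at -4.43 and -0.22 and lost both calls after GC correction, at -0.76 and -0.07. Without siMESH1-CDS replicate 3 the first value was -6.35. NT5C2, a nucleotidase that prefers IMP and GMP, rose by 1.199 (0.64 after GC correction) and 0.30.

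The thioredoxin and glutaredoxin systems include the reducing partners of the reductase, but not all genes of this list serve it. Of these 8 genes 2 rose and 3 fell with siMESH1-CDS (median 0.01), and 2 rose and 1 fell with siMESH1-7002 (median 0.07). TXN2 and TXNRD2, both called lower with siMESH1-CDS, were at 0.05 and -0.05 after GC correction, neither a call. After GC correction 2 were higher and 2 lower with siMESH1-CDS (median -0.01), and 5 higher and 1 lower with siMESH1-7002 (median 0.12). TXNRD1, which reduces thioredoxin, rose with each siRNA, from 488.5 to 2032 CPM (log2 fold change 2.06, 1.54 after GC correction) and from 195.2 to 235 CPM (0.27, edgeR adjusted p = 0.000236). GLRX, a glutaredoxin that can also reduce the enzyme, was lower with siMESH1-CDS at -0.83 and higher with siMESH1-7002 at 0.33, each a call (-1.297 and 0.35 after GC correction), and was chosen after its values were seen.

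Genes for one-carbon units, which bring the methyl group of thymidylate, were lower in 8 of 10 cases with siMESH1-CDS and in 6 of 10 with siMESH1-7002, with medians of -1.21 and -0.24, and the others were not called. After GC correction 7 were lower and 0 higher with siMESH1-CDS, and 5 lower and 2 higher with siMESH1-7002. SLC19A1, the reduced folate carrier, was at -4.95 and -0.41 on the log2 scale, and MTHFD1, a cytosolic folate enzyme, was at -1.04 and -0.31. The corrected siMESH1-CDS values were -1.40 for SLC19A1 and -0.94 for MTHFD1, both calls, and SLC19A1 was at -5.81 without siMESH1-CDS replicate 3.

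In de novo pyrimidine synthesis 4 of 5 genes fell with siMESH1-CDS and 5 of 5 with siMESH1-7002, with medians of -1.46 and -0.28, and after GC correction 4 were lower with each. CTPS1, which makes CTP, went from 291.7 to 94.7 CPM and from 51.6 to 25.3 CPM, changes of -1.62 (-1.17 after GC correction) and -1.03. CAD, the first enzymes of the pathway, went from 109 to 13.6 CPM with siMESH1-CDS, and was at -0.41 with siMESH1-7002. Its GC-corrected log2 fold change with siMESH1-CDS was -1.15 (edgeR adjusted p = 0.0476). The call with siMESH1-CDS was lost without siNT-CDS replicate 1, 2 or 3 (log2 fold changes -2.98, -3.03 and -2.99) and without siMESH1-CDS replicate 1 (-2.76), and the value was -4.33 without siMESH1-CDS replicate 3. DHODH was at -1.15 (-0.53 after GC correction) and -0.28, and lost the call with siMESH1-7002 after GC correction (-0.18) and without siNT-7002 replicate 2 (-0.20) or siMESH1-7002 replicate 1 (-0.22). In de novo purine synthesis 5 of 12 fell and 1 rose with siMESH1-CDS (median -0.34) and 9 of 12 fell and 1 rose with siMESH1-7002 (median -0.21). After GC correction 8 were lower and 0 higher with siMESH1-CDS (median -0.54), and 8 and 2 with siMESH1-7002 (median -0.18). PRPS1, which makes the ribose phosphate donor, was at -1.39 (-1.46 after GC correction) and -0.64, both calls, and PFAS was at -2.46 and -0.59, with a corrected siMESH1-CDS value of 0.00 that was not called. IMPDH1, at the branch to guanine nucleotides, was at -6.51 and -0.23, and with siMESH1-CDS at -9.62 without siMESH1-CDS replicate 3. Its GC-corrected values were -3.34 with siMESH1-CDS, a call, and -0.09 with siMESH1-7002, which was not called.

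**Figure D5:**
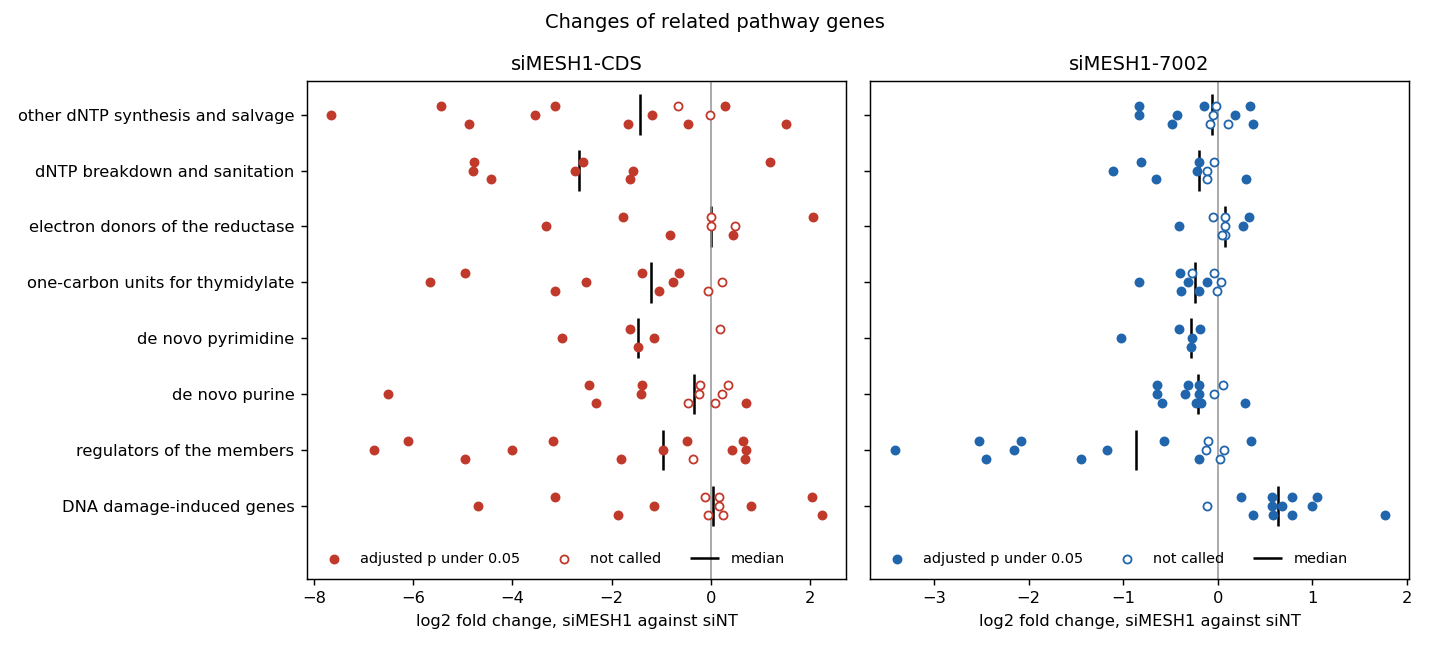
Log2 fold change of every tested gene in the 8 lists, with siMESH1-CDS on the left and siMESH1-7002 on the right (the axes differ in range), filled where the adjusted p was under 0.05 and open otherwise, with a bar at the median of the list. The medians on the right run from -0.87 for regulators to 0.63 for DNA damage-induced genes, and those on the left from -2.66 for dNTP breakdown to 0.05.

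Among regulators of the 9 genes, 8 of 13 fell and 4 rose with siMESH1-CDS (median -0.96), and 9 of 14 fell and 1 rose with siMESH1-7002 (median -0.87). After GC correction 9 were lower with each, and 2 and 1 higher. E2F1, the activator of S-phase genes, fell from 40.1 to 0.366 CPM and from 28.2 to 4.90 CPM, changes of -6.78 (-3.62 after GC correction) and -2.52. Its value with siMESH1-CDS ran from -7.83 without siMESH1-CDS replicate 3 to -6.15 without siMESH1-CDS replicate 2. E2F2 fell from 6.78 to 0.0951 CPM and from 5.33 to 0.497 CPM, changes of -6.11 (-3.97 corrected) and -3.42. E2F3 rose by 0.69 (0.36 after GC correction) and 0.35. CDC20, which directs the mitotic ubiquitin ligase, was at -4.94 and -2.15, both calls, and with siMESH1-CDS at -3.03 after GC correction and -6.60 without siMESH1-CDS replicate 3. With siMESH1-CDS the means of E2F1, E2F2, TYMP, IMPDH1, NUDT1, SLC19A1 and NT5C were all under 1 CPM, so their folds rest on few reads. CCNF, the cyclin that marks RRM2 for destruction in G2, was at -3.19 and -1.17, with a corrected siMESH1-CDS value of -0.80 that was not called, and was chosen after its values were seen.

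DNA damage-induced genes other than RRM2B were higher in 11 of 12 cases with siMESH1-7002 and lower in none, with a median of 0.63. With siMESH1-CDS 3 rose and 4 fell, with a median of 0.05. After GC correction 8 were higher and 1 lower with siMESH1-CDS, with a median of 1.46. RRM2B itself had 0.69 with siMESH1-7002 and a corrected value of 0.13 with siMESH1-CDS. MDM2, a ubiquitin ligase, rose by 2.05 (1.35 after GC correction) and 0.37 on the log2 scale and SESN1, a stress sensor, by 2.24 (1.70 corrected) and 0.25. The call of SESN1 with siMESH1-7002 was lost without siNT-7002 replicate 1, at 0.20. ZMAT3 rose by 0.81 and 0.79, and its value with siMESH1-CDS was -0.01 after GC correction and lost its call, at 0.76, without siNT-CDS replicate 3.

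The genes whose pattern was most like that of RRM2 and RRM2B were found by Pearson correlation of log2 CPM, centred on the mean of each experiment, over the 12 libraries and 11548 genes. The points share their libraries and the contrast of each experiment, so r is given as a description. Nearest to RRM2 were E2F2 (r = 0.999), SHCBP1 (0.999), BIRC5 (0.998), MCM4 (0.998) and DNAJC9 (0.996). SHCBP1 changed by -3.93 and -2.39, BIRC5, the survivin gene, by -3.31 and -2.04, MCM4, a subunit of the replicative helicase, by -2.86 and -1.80, and DNAJC9, a histone chaperone, by -1.65 and -0.81. After GC correction their siMESH1-CDS values were -4.50 for SHCBP1, -2.60 for BIRC5, -2.76 for MCM4 and -1.90 for DNAJC9. Of the 9 genes, TYMS (0.992) and RRM1 (0.985) were closest to RRM2, followed by DCTPP1 (0.918) and TK1 (0.913), with RRM2B at -0.900 and SAMHD1 at -0.01. Nearest to RRM2B were UFM1 (0.997), RAB11FIP2 (0.996), NEK7 (0.996), PCMTD1 (0.994) and FAM91A1 (0.993). Their changes with siMESH1-CDS lay between 0.73 and 1.03 and, after GC correction, between -0.12 and 0.14, like that of RRM2B, and with siMESH1-7002 between 0.43 and 0.73.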

How the data were processed

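RNA was prepared with a stranded poly(A) kit and sequenced as single reads of 50 bases. The deposited values are raw counts, 1 whole number per gene and library, which the authors made with HISAT2 and HTSeq; hg19 is the build named in the submitters' processing notes, and tool versions and the annotation are not given in the sources used here. Deposited tables of the authors' own DESeq2 comparisons hold mean counts, log2 fold changes and p-values and were not used. Rows naming no gene (38.9% to 49.3% of reads, of which reads of low alignment quality were 6.31% to 7.59% in the siMESH1-CDS experiment and 0 in the other) were left out.

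Counts were fitted per experiment with edgeR 4.0.16 in R 4.3.3 (filterByExpr, TMM, glmQLFit and glmQLFTest), adjusted with Benjamini-Hochberg over all genes tested at a threshold of 0.05, and in 1 fit of 12 libraries for the difference between siRNAs. Errors are SD of 3 libraries and SE from the fit, and depth limits the lowest values (with siMESH1-CDS, TK1, HDDC3 and the list genes under 1 CPM). GC content, lengths and positions came from GENCODE 29 on GRCh38 by symbol (21257 of 23710 by name, 1100 by older symbol, 1353 not matched), and promoters from RefSeq. The GC correction used a lowess span of 0.3. Alternatives were DESeq2 1.42.0, limma 3.58.1 voom with weights by group, RLE factors, library size only, 2 other filters, an adjusted p under 0.01, 1 fit of 4 groups, a lane covariate, a replicate term and leaving out each library. Ratios were tested by exact permutation (scipy 1.17.1, numpy 2.4.6, pandas 2.3.3, Python 3.11.15). The fits were tested on simulated counts with the same spread in both groups and no GC trend. That setting holds neither the GC trend of siMESH1-CDS nor its wider spread than its controls, so it does not cover them.

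The 9 genes and all lists were chosen with earlier results of these data known. From each list up to 3 genes per direction are named that passed the test with each siRNA on the same side, did not overlap between groups and reached a mean of 1 CPM in each experiment, ranked by the smaller change. Some genes that this rule names, or that the lists hold, are not reported here.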

Additional observations from a re-analysis of the deposited data

Results flagged for a closer look

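The change with siMESH1-7002 and the change with siMESH1-CDS were compared in 1 fit for 33 genes, the 9 nucleotide supply genes, HDDC3 and the genes named from the lists, and 27 of them differed by edgeR's quasi-likelihood test at an adjusted p under 0.05, beside 69.7% of all genes. Values below are differences of log2 fold changes, siMESH1-7002 minus siMESH1-CDS, both from the fit with all 12 libraries scaled together. After GC correction 19 of the 27 were still called and 2 changed sign, DTYMK (-0.05) and PFAS (-0.51).

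Of the nucleotide supply genes, RRM1 differed by 0.49, RRM2 by 1.87, TYMS by 0.90, TK1 by 4.36 and DCTPP1 by 1.69.

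Of the neighbouring steps, DTYMK differed by 2.87, TYMP by 5.15, NUDT1 by 3.84, PNP by 2.24, NT5C by 4.36, SLC19A1 by 4.71, MTHFD1 by 0.88, CTPS1 by 0.75, CAD by 2.74, DHODH by 1.02, PRPS1 by 0.90, PFAS by 2.02 and IMPDH1 by 6.42. Each of these genes was lower with each siRNA and, before GC correction, lower still with siMESH1-CDS. CMPK1 (-0.98), NT5C2 (-0.75) and TXNRD1 (-1.64) were higher with each siRNA and differed the other way.

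Of the regulators, E2F2 differed by 2.83, E2F1 by 4.42 and CDC20 by 2.94, and of the DNA damage-induced genes MDM2 by -1.52 and SESN1 by -1.84. HDDC3, the targeted gene, differed by 2.47 (edgeR adjusted p = 0.00370) and by 0.52 after GC correction (edgeR adjusted p = 0.322).

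After GC correction the difference was 3.20 for IMPDH1, 1.93 for PNP, -1.36 for SESN1 and -1.18 for TXNRD1, all still called. The calls were lost for DCTPP1 (0.04), DTYMK, PFAS, CAD (0.77), DHODH (0.34), E2F2 (0.66), CDC20 (0.89) and HDDC3.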

How the results depend on the processing

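In the comparisons with siNT, the 6 and 8 called genes kept their direction under every setting run, and 2 calls were lost, RRM2B with siMESH1-CDS after GC correction and DCTPP1 with siMESH1-7002 (-0.81) in 1 fit of 4 groups. That fit called 2582 genes with siMESH1-7002 in place of 7235, and 27 list genes in place of 58; CMPK1, TYMP, PNP, NT5C, SLC19A1, CAD, DHODH, PFAS, IMPDH1, MDM2 and SESN1 lost their calls in it. With siMESH1-CDS, SAMHD1 turned negative with library size only (-0.21), at least 10 counts in every library (-0.13), GC correction (-0.17), 1 fit of 4 groups (-0.10) and a lane covariate (-0.048), and ZMAT3 was -0.010 after GC correction. DUT became a call with library size only (-0.38) and in 1 fit of 4 groups (-0.27). For the difference between siRNAs, SAMHD1 was -0.12 with DESeq2 and with RLE factors, and RRM2B (0.60), DUT (0.23) and DCK (0.36) turned positive after GC correction. TK1 could not be fitted where at least 10 counts were required in every library.

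Leaving out single libraries gave 6 called with siMESH1-CDS and 8 with siMESH1-7002 throughout, and 5 to 8 for the difference, where 8 came without siMESH1-CDS replicate 3. List genes called ran from 47 to 66 and from 54 to 63. The log2 RRM2 to RRM2B difference ran from -5.20 to -4.86 and from -3.12 to -2.99. SAMHD1 ranged from -0.034 to 0.13 and DCK from -0.28 to 0.10 with siMESH1-CDS, and for the difference SAMHD1 from -0.15 to 0.13 and RRM2B from -0.42 to 0.079.

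Same-numbered libraries deviated together by correlations of -0.05, 0.22 and 0.13 in the siMESH1-CDS experiment and -0.06, 0.04 and -0.08 in the other. Differently numbered libraries ranged from -0.264 to 0.167 and from -0.087 to 0.144. With 3 libraries per group these values cannot settle whether replicate numbers pair the libraries. With the replicate block 6 and 8 of the 9 genes were called, and RRM2 was at -4.08 and -2.36. All genes called went from 9926 to 9273 and from 7235 to 6972.

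Depth limits TK1 and HDDC3 with siMESH1-CDS, where 0 to 55 reads remained, and E2F1, E2F2, TYMP, IMPDH1, NUDT1, SLC19A1 and NT5C, whose means there were under 1 CPM, as that of E2F2 was with siMESH1-7002.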
